A study of Mus musculus with 19 samples.

Results

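The SR splicing factor genes *Srsf1*, *Srsf2*, *Srsf3*, *Srsf4*, *Srsf5*, *Srsf6*, *Srsf7*, *Srsf9*, *Srsf10* and *Srsf11* are described here in single mouse blastocysts that lack the NMD factor UPF2. Below, the members and the family mean these 10 genes alone. They were chosen by name, as genes whose own mRNAs can take up a poison exon, and all 10 were found among the 41388 genes of the count table and among the 17137 genes that reached 10 counts in any embryo. RNA-seq was performed on whole early blastocysts at E3.25, 8 of them *Upf2*-null (*Upf2*-/-) and 11 of them littermate controls (*Upf2*+/+). Both came from matings of *Upf2*+/- mice on a C57BL/6 background, and the null allele was made from a floxed allele with Cre under the *E2a* promoter, which removes exons 2 and 3. Zygotes of both genotypes were cultured to the blastocyst stage. Each library holds the RNA of 1 whole embryo, with trophectoderm, epiblast and primitive endoderm precursors together.

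SR proteins carry RNA recognition motifs and a tail rich in arginine-serine dipeptides. They bind exonic enhancers in pre-mRNA and recruit the splicing machinery to nearby splice sites, and several also accompany mRNA to the cytoplasm. Their genes limit their own output: when the protein is abundant, a poison exon with an in-frame stop codon is spliced into the mRNA, and the product is degraded by NMD, which recognizes a stop codon that lies well upstream of an exon junction. UPF2 is a core factor of that pathway. The question addressed here is whether the mRNA level of these genes differed in embryos without it, and which poison exons the transcript models of these embryos contain.

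The poison exons are shown first, since they are the part of each gene through which NMD could act. A sequence is given for the 5 genes in which a transcript model that carries such an exon could be read from the usual start codon to a stop inside it, early in that model. It is the exon read this way in the most models, and where *Srsf9* exons of 90 and 358 bases tied with 1 such model each, the 90-base exon is given because more models (3 against 2) join it to the usual preceding splice site. For *Srsf10*, whose cassette exon is in the most models, it is an extension of exon 2 in which those models stop. Each sequence starts with 12 to 14 bases of the preceding coding exon, in frame, and runs to the first in-frame stop codon, which is in capitals. Positions are on GRCm38, the bases come from GENCODE M21 transcripts, and the models are those that the authors merged over all embryos.
Srsf3: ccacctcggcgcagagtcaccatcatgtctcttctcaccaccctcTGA
Srsf6: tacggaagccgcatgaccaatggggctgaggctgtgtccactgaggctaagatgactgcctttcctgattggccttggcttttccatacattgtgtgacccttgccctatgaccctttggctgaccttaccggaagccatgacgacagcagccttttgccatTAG
Srsf7: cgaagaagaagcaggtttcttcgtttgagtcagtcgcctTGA
Srsf9: gttcttgtttcagaaaactatTAG
Srsf10: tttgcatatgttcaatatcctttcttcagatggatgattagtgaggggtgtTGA
Srsf11: aacttctttcggTGA

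The merged models held 148 transcripts of the 10 genes, of which 73 were annotated and 75 were assembled from the embryos' reads. Within introns of the longest coding transcript of each gene, here called the main transcript, they held 23 separate cassette exons. Spliced into the main transcript, 21 of the 23 gave a stop codon more than 50 bases before the last exon junction, the spacing at which NMD usually acts. These 21 exons lay in 8 of the 10 genes and ran from 59 to 989 bases. The stop was inside the exon itself in 19 and in the exons that follow in the other 2. The stop is a property of this insertion: a merged model that carries the exon and the main start codon was read to the same stop for 10 of the 21, in *Srsf3*, *Srsf6*, *Srsf7*, *Srsf9* and *Srsf11*, and for 8 of them, in the same 5 genes, it lay more than 50 bases before that model's own last junction. Of the 21 exons, 14 were present in at least 1 assembled model. Since the genes were picked for poison exons, the presence of such exons is a description and not a finding. The models carry no level per embryo, so how much of each isoform was present in either genotype was not analysed here.

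**Figure D1:**
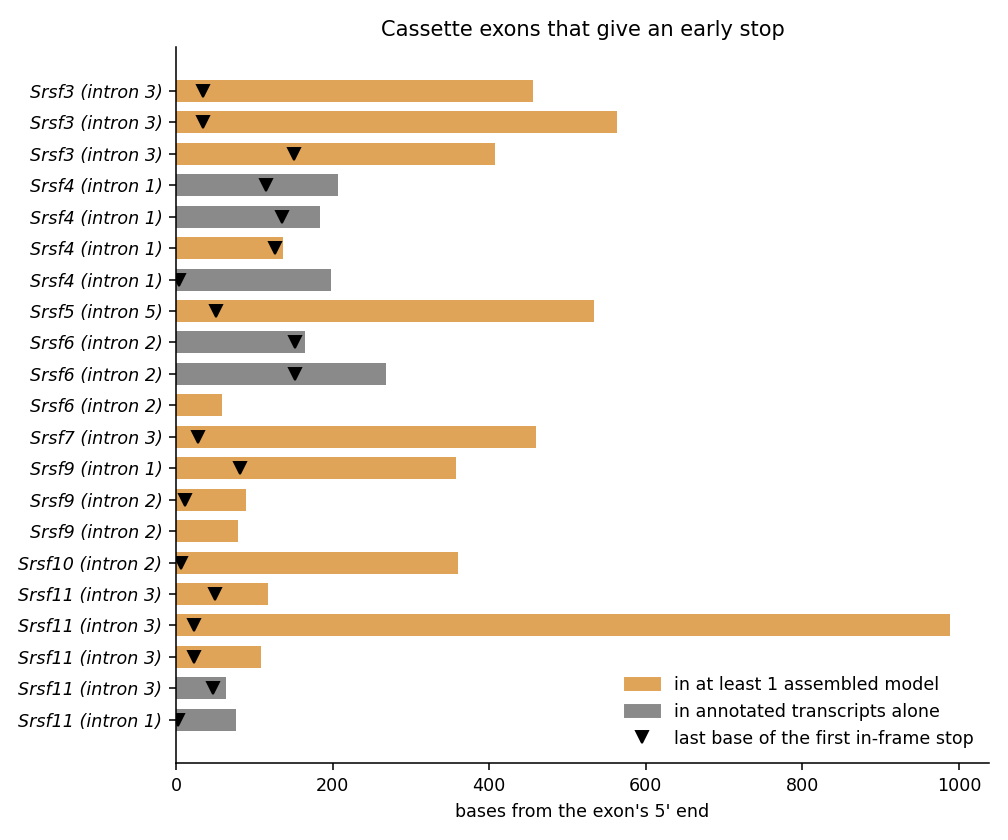
Length of each cassette exon that gives an early stop when spliced into the main transcript, in bases from the exon's 5′ end, by gene and intron, with the last base of the first in-frame stop of that insertion marked by a triangle. Ochre bars are exons in at least 1 assembled model and grey bars are exons in annotated transcripts alone. The longest bar is the 989-base exon of *Srsf11*, and the 2 bars with no triangle, of *Srsf6* and *Srsf9*, have their stop in the exons that follow.

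The exons differed in length and in how early the stop came. In *Srsf3* the exon at chr17:29039454-29039909 (plus strand, intron 3, 456 bases) ended its reading frame at base 34, after 124 residues of a protein that has 164 in the main transcript. *Srsf7*, on the minus strand, had a 460-base exon at chr17:80204622-80205081, also in intron 3, with the stop ending at base 28. It was present in 5 assembled models and in no annotated transcript of the merged set. That set held 1 annotated *Srsf7* transcript, whereas GENCODE M21 has 8, 1 of them of the NMD class. The exon's bases up to the stop are covered by M21 transcripts, so its absence from the merged annotated transcripts does not make it unannotated. *Srsf5* likewise had a 534-base exon (chr12:80948129-80948662, plus strand, intron 5) that appeared in 1 assembled model and in no annotated transcript. That model stopped upstream of the exon, after 57 residues and 1110 bases before its last junction, so it does not read the exon's own stop. Spliced into the main transcript, the exon gave a stop that ended at its base 51, after 138 residues. An annotated and an assembled model also stopped after 138 residues, 51 bases into their last exon, where no junction follows.

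*Srsf10* had the exon with the most models, 1 annotated and 7 assembled, a 360-base exon at chr4:135858842-135859201 (plus strand, intron 2). None of these 8 models joined it to exon 2 as the main transcript ends it. All 8 instead extended exon 2 by 62 bases, at chr4:135858410-135858471, and met a stop that ended at base 40 of that extension, after 69 residues and 677 to 706 bases before the last junction. The early stop of these models thus lies before the cassette exon. In *Srsf6* the 268-base exon at chr2:162932815-162933082 (plus strand, intron 2) was in 1 annotated transcript, with its stop 534 bases before the last junction. A 165-base form with the same stop was in another, whose last junction follows that stop by 13 bases. Of these cassette exons the assembled models held only one of 59 bases, in 1 model that ended without a stop. Assembled *Srsf6* models without these exons also stopped early, 3 in all. They stopped after 135, 130 and 68 residues, at 877, 265 and 318 bases before the last junction. The stop in the 268-base exon also came after 135 residues. The 90-base exon of *Srsf9* at chr5:115331450-115331539 (plus strand, intron 2) reached a stop that ended at base 11, and 1 of the 3 models that carry it could be read to that stop, while a 358-base exon lay in intron 1.

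*Srsf11* had 5 such exons, and the one shown is the 76-base exon at chr3:158031991-158032066 (minus strand, intron 1), in 1 annotated transcript, with a stop that ended at base 3, after 30 residues. A 64-base exon was read to its stop in 1 annotated transcript, 17 bases before the last junction, and no model that carries any of the other 3 contained the main start codon. *Srsf4* had 4, all in intron 1, of which the 184-base exon at chr4:131885309-131885492 (plus strand) was in 2 annotated transcripts. None of the models that carry them contained the main start codon, so none of these *Srsf4* models could be read to the stop. Only the 207-base exon was joined in a model to exon 1 as the main transcript ends it. A further *Srsf4* exon of 174 bases kept the reading frame when spliced into the main transcript. No model placed any of these *Srsf4* exons between the main exons on both sides. The assembled models of *Srsf4* and *Srsf11* gave no early stop when read from the main start codon, which 1 of 1 and 7 of 9 of them did not contain.

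*Srsf1* and *Srsf2* had no early-stop cassette exon. *Srsf2* instead had a 104-base exon at chr11:116851648-116851751 (minus strand, intron 2) that lies after the usual stop codon and places an exon junction 111 bases downstream of it, with the full 221 residues kept. All 3 assembled *Srsf2* models with an early stop used this usual stop. *Srsf1* had 2 assembled models, and both ended more than 50 bases before the last junction. One ended 489 bases before it, after 248 residues, and the other 826 bases before it, after 201 residues. The main transcript of *Srsf1* has 253 residues, but annotated transcripts also end after 248 and 201. The 248-residue one is the principal transcript in the annotation, and the first assembled model kept its full reading frame and usual stop. Over all genes, 34 of the 55 assembled models that held the main start codon had an early stop, against 12 of 41 annotated ones.

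The libraries were of like depth, with 4068350 to 5993745 counts (median 4824546.5) in *Upf2*-null blastocysts and 4056072 to 5854659 (median 5008508) in control blastocysts. *Upf2* itself had 64.3 to 122.6 CPM (counts scaled to the library total with TMM factors) in *Upf2*-null blastocysts with a median of 88.7, against 37.2 to 87.8 CPM with a median of 55.2 in control blastocysts. These counts include exons outside the deletion and do not check the genotype. Trophectoderm markers summed to 918 to 1446 CPM in *Upf2*-null blastocysts and 747 to 1615 CPM in control blastocysts. All 7 of these genes were tested, but *Elf5* averaged only 0.417 CPM in *Upf2*-null blastocysts and 0.651 CPM in control blastocysts. Primitive endoderm markers, 5 of 5 being tested, summed to 131 to 228 CPM in *Upf2*-null blastocysts and 95.1 to 229 CPM in control blastocysts. Epiblast markers summed to 328 to 455 CPM in *Upf2*-null blastocysts and 414 to 794 CPM in control blastocysts, 6 of 6 being tested and *Sox2* alone reaching 0 in any embryo, and their part in the SR gene values was not tested. Fewer cells of a lineage and less RNA per cell cannot be told apart from the RNA of whole embryos. In stained blastocysts the paper counted significantly fewer NANOG-positive cells in *Upf2*-null than in control embryos. CDX2-positive, GATA6-positive and total cell numbers did not differ significantly there. Of 7 cumulus and granulosa cell genes none had 10 counts in any embryo, and of 4 red blood cell genes only *Alas2* did, at 0 to 12.6 CPM in *Upf2*-null blastocysts and 0 to 0.257 CPM in control blastocysts. The highest count of any gene was 4884 after the authors' duplicate removal, and whether that removal compressed the counts of abundant genes was not tested.

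None of the 10 SR genes differed between *Upf2*-null and control blastocysts at an adjusted p under 0.1, in either direction. The quasi-likelihood test of edgeR called 30 genes higher and 3 lower among the 17137 tested, which is 0.175% and 0.0175%. At an unadjusted p under 0.05 the only member was *Srsf2*, lower in *Upf2*-null blastocysts, where 7.38% of all genes were lower and 5.15% higher at that level. DESeq2 and limma voom also called no member, while calling 0.595% and 0.514% of all genes higher and 0.432% and 0.14% lower. The log2 fold change (*Upf2*-null over control) was below 0 in 7 members and above 0 in 3, with a median of -0.11, against a median of -0.02 over all genes tested. For comparison, the 3801 tested protein-coding genes with an NMD-class transcript in GENCODE M21 had a median of -0.00034. That class was held by 9 of the 10 members, all but *Srsf10*, and by 26.6% of the 14299 protein-coding genes tested.

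**Figure D2:**
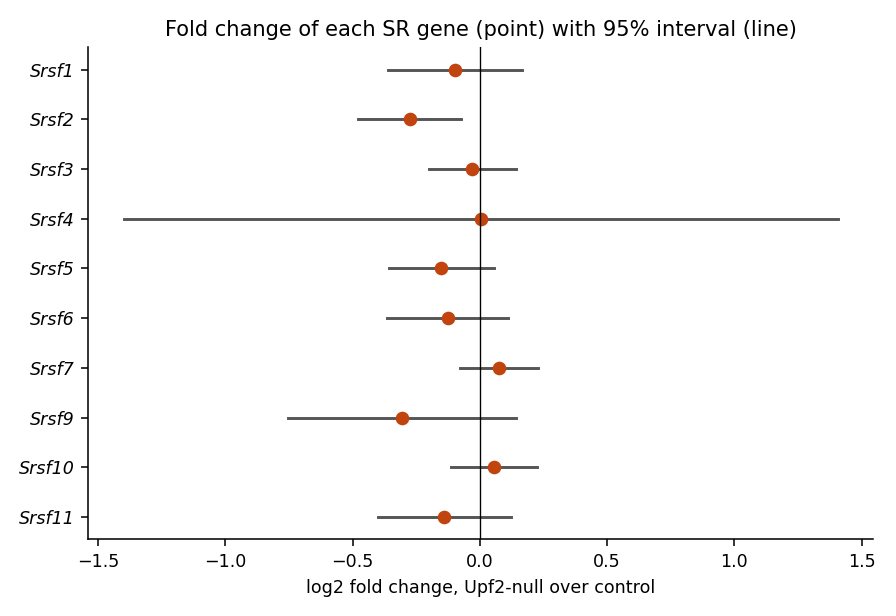
Log2 fold change of each SR gene, *Upf2*-null over control, as a point with its 95% interval as a line, from the edgeR fit to 8 and 11 embryos. The interval of *Srsf2* is the only one that does not reach 0, and that of *Srsf4* is the widest, from -1.40 to 1.41.

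The intervals bound how large a difference in these counts could have gone undetected. The counts follow duplicate removal, and whether that compressed differences of abundant genes was not tested. Leaving *Srsf4* aside, the 95% intervals of the other 9 genes ran from 0.593-fold to 1.17-fold of the control level. In 7 of these 9 the whole interval lay within 25% of the control level. A p above the threshold does not show that the levels were equal. A gene count also adds the productive and the poison-exon mRNAs, so these values do not separate the isoforms.

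*Srsf2* encodes SC35, a protein of nuclear speckles, and had the lowest p of the family. Its level ran from 123.9 to 206.4 CPM in *Upf2*-null blastocysts with a median of 168.0, against 151.1 to 228.6 CPM with a median of 199.97 in control blastocysts. The groups overlapped, with 7 of 8 *Upf2*-null blastocysts below the control median and 2 below the lowest control. Means were 162.8 ± 27.2 CPM (SD, n = 8) in *Upf2*-null blastocysts, against 197.2 ± 22.1 CPM (SD, n = 11) in control blastocysts. The log2 fold change was -0.28 ± 0.10 (SE), with an unadjusted p of 0.00969 and an adjusted p of 0.262 from edgeR. Stretches of *Srsf2* overlap *Mfsd11* and *Mettl23*, and without strand their reads cannot be told apart. The 3 lowest values of *Srsf2* came from *Upf2*-null blastocysts 7 and 4 and control embryo 6, which also stood low in other members, as described below. Without those 3 embryos, a choice made after the data were seen, its log2 fold change was -0.21 (unadjusted p = 0.0150, adjusted p = 0.400, edgeR).

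*Srsf1*, the founding member of the family and an activator of constitutive and alternative splicing, ran from 153.8 to 277.7 CPM in *Upf2*-null blastocysts (median 205.7) and from 163.5 to 280.6 CPM in control blastocysts (median 230.0). The 2 ranges nearly coincide, and 4 of 8 *Upf2*-null blastocysts lay on each side of the control median. Its log2 fold change was -0.10 ± 0.13 (SE; adjusted p = 0.880, edgeR). The antisense gene *Gm11508* overlaps it, and reads of the pair cannot be told apart.

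*Srsf3*, the smallest SR protein, which is needed for blastocyst formation in the mouse, showed 255.0 to 330.7 CPM in *Upf2*-null blastocysts (median 293.6) and 235.4 to 349.5 CPM in control blastocysts (median 296.7). The *Upf2*-null blastocysts lay inside the range of the controls. The log2 fold change was -0.03 ± 0.08 (SE; adjusted p = 0.961, edgeR), and its interval corresponds to 0.870-fold to 1.10-fold. *Srsf7*, a relative of *Srsf3* with a zinc knuckle that takes part in mRNA export, ran from 378.0 to 489.8 CPM in *Upf2*-null blastocysts (median 423.3) and from 333.2 to 487.4 CPM in control blastocysts (median 395.1). Of the 8 *Upf2*-null blastocysts 6 lay above the control median, and the ranges overlapped almost fully. Its log2 fold change was 0.07 ± 0.07 (SE; adjusted p = 0.816, edgeR).

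**Figure D3:**
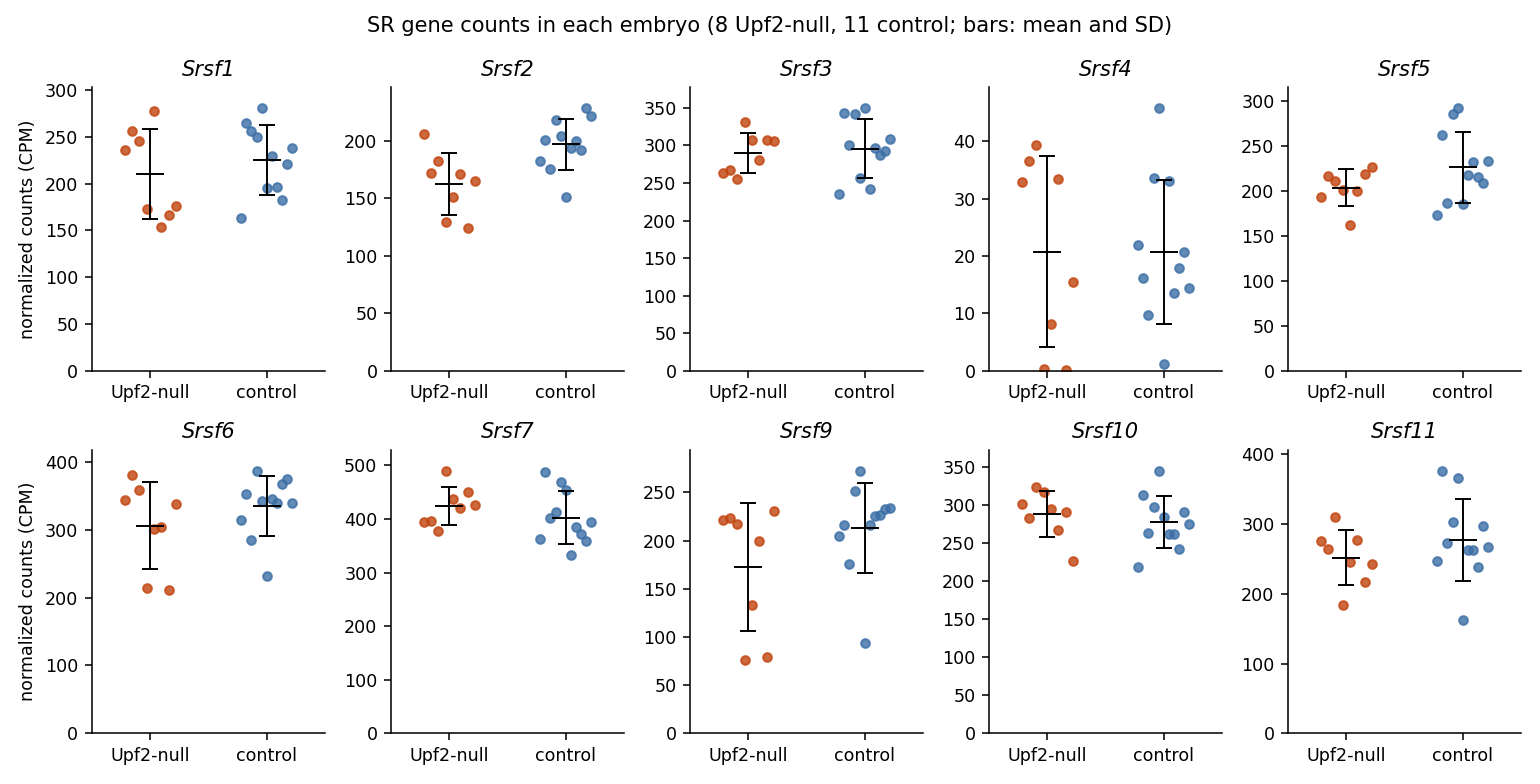
Normalized counts (CPM) of the 10 SR genes, each point 1 embryo, *Upf2*-null (orange) beside control (blue), with the mean and SD as a bar. The 2 genotypes overlap in each panel, and *Srsf6* and *Srsf9* each show 2 *Upf2*-null blastocysts and 1 control below the rest.

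*Srsf4*, *Srsf5* and *Srsf6* encode larger SR proteins with paired RNA recognition motifs. *Srsf4* had by far the fewest counts of the family, with 0.199 to 39.4 CPM in *Upf2*-null blastocysts (median 24.2) and 1.18 to 45.8 CPM in control blastocysts (median 17.9). *Upf2*-null blastocysts 4 and 7 had 1 count each and control embryo 6 had 5. With a coefficient of variation of 80.1% in *Upf2*-null blastocysts and 60.5% in control blastocysts, the log2 fold change of 0.0035 ± 0.67 (SE; adjusted p = 0.999, edgeR) was compatible with anything from 0.379-fold to 2.65-fold. *A930004J17Rik* and *Gm12992* overlap this gene.

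*Srsf5* ran from 162.2 to 226.6 CPM in *Upf2*-null blastocysts (median 206.4) and from 173.6 to 291.8 CPM in control blastocysts (median 217.3). Only controls, 3 of them, were above 250 CPM, yet most embryos of both genotypes shared the range below that. Its log2 fold change was -0.15 ± 0.10 (SE; adjusted p = 0.628, edgeR). *Srsf6* showed 210.5 to 380.3 CPM in *Upf2*-null blastocysts (median 321.2) and 232.4 to 386.9 CPM in control blastocysts (median 341.8). *Upf2*-null blastocysts 7 and 4 were its 2 lowest values, and the other 6 were above 301 CPM. Its log2 fold change was -0.13 ± 0.11 (SE; adjusted p = 0.780, edgeR).

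*Srsf9* encodes a small SR protein with a short arginine-serine tail. It ran from 76.4 to 230.7 CPM in *Upf2*-null blastocysts (median 208.5) and from 93.3 to 272.4 CPM in control blastocysts (median 225.3), with 7 of 8 *Upf2*-null blastocysts below the control median. *Upf2*-null blastocysts 4 and 7 were at 76.4 and 79.1 CPM and control embryo 6 at 93.3 CPM, while the other controls were all at 175.4 CPM or more. Its log2 fold change of -0.31 was the largest of the family in size, with an SE of 0.22 and an adjusted p of 0.666 from edgeR. Without those 3 embryos, a choice made after the data were seen, it was -0.14.

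*Srsf10* encodes an SR protein that turns into a splicing repressor when it is dephosphorylated. It ran from 227.1 to 324.0 CPM in *Upf2*-null blastocysts (median 293.2) and from 219.1 to 345.6 CPM in control blastocysts (median 276.1). The *Upf2*-null blastocysts lay inside the range of the controls, 6 of 8 above their median, and the log2 fold change was 0.05 ± 0.08 (SE; adjusted p = 0.903, edgeR). *Srsf11*, which encodes p54, a partner of the 3′ splice site factor U2AF, showed 183.5 to 310.9 CPM in *Upf2*-null blastocysts (median 254.7) and 163.2 to 376.5 CPM in control blastocysts (median 266.8). Its *Upf2*-null range also fell within that of the controls, with a log2 fold change of -0.14 ± 0.13 (SE; adjusted p = 0.785, edgeR). *Gm43362* overlaps *Srsf11*.

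Divided by the length of all annotated exons, the levels placed *Srsf9* and *Srsf7* at the top of the family. This length exceeds that of the main transcript by unlike amounts. For *Srsf3* it is 7.899 kb against a main transcript of 2566 bases, and for *Srsf9* 1.653 kb against 1162 bases. Levels over the main transcript's length were not computed, so the order holds for this divisor alone. *Srsf9* had 104.5 ± 40.0 CPM per kb (SD, n = 8) in *Upf2*-null blastocysts, against 129.1 ± 28.4 in control blastocysts (SD, n = 11), and *Srsf7* had 119.4 ± 10.1 and 113.4 ± 13.9 CPM per kb in *Upf2*-null and control embryos. Their ranges of mean ± SD overlapped in either genotype. *Srsf6*, *Srsf2* and *Srsf5* followed, between 51.1 and 63.7 CPM per kb in *Upf2*-null blastocysts and between 56.8 and 69.6 CPM per kb in control ones. *Srsf10*, *Srsf1*, *Srsf3* and *Srsf11* lay from 29.9 to 41.2 CPM per kb in *Upf2*-null blastocysts and from 32.9 to 39.7 in control ones. Within each of these sets the ranges of mean ± SD of neighbouring genes overlapped. *Srsf4* was lowest, at 5.83 ± 4.67 CPM per kb in *Upf2*-null blastocysts and 5.82 ± 3.52 in control blastocysts. Summed over the family, the level was 2331 ± 170 CPM (SD, n = 8) in *Upf2*-null blastocysts, against 2472 ± 266 CPM (SD, n = 11) in control blastocysts, with ranges of 2065 to 2522 and 2110 to 2874 CPM that overlap.

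The difference between the genotype means was smaller than the larger of the 2 SDs in all members but *Srsf2*, and part of the spread between embryos was shared by several members. In 5 of the 10 members (*Srsf2*, *Srsf4*, *Srsf6*, *Srsf9* and *Srsf11*) the 3 lowest of the 19 values belonged to *Upf2*-null blastocysts 4 and 7 and control embryo 6. This was so in 440 of 3659 other genes that averaged at least 100 CPM, or 12.03%. The 3 embryos were picked after their values were seen, so the count is a description. These 5 members have the highest GC content of the family in their longest transcript, from 42.8% in *Srsf6* to 53% in *Srsf4*, while the other 5 lie between 40.1% and 41.6%.

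The libraries differed in how they represented GC-rich transcripts. For each embryo a GC shift was taken as the median log2 deviation of genes above 55% GC minus that of genes below 45%, over genes averaging at least 50 counts and without the SR genes. It ran from -0.76 to 0.37 in *Upf2*-null blastocysts (mean -0.04 ± 0.43, SD, n = 8) and from -0.39 to 0.47 in control blastocysts (0.08 ± 0.28, SD, n = 11). *Upf2*-null blastocysts 4 and 7 had the 2 lowest values of all, -0.76 and -0.48, and control embryo 6 had -0.35. Control embryo 2, at -0.39, did not share the low *Srsf9* level, with 216.4 CPM.

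*Srsf7* and *Srsf3*, with 41.6% and 40.9% GC, were lower where the GC shift was higher. *Srsf5*, *Srsf1* and *Srsf10* have a like GC content, 40.1%, 40.6% and 41.4%, but had r of 0.06, 0.10 and -0.42 over all embryos. The part of a gene's own GC content in these relations was not tested. Relations with log2(CPM + 1) were computed for the 10 genes, with permutation p-values adjusted over the 10. Over all 19 embryos Pearson's r was -0.83 for *Srsf7* (adjusted permutation p = 1e-04; Spearman's rho = -0.81, adjusted permutation p = 4e-04) and -0.74 for *Srsf3* (adjusted permutation p = 8e-04; rho = -0.79, adjusted permutation p = 5e-04). Both held within each genotype, with r of -0.95 in *Upf2*-null blastocysts and -0.84 in control blastocysts for *Srsf7* and of -0.87 and -0.81 for *Srsf3*, and both were -0.79 without the 2 embryos farthest from the median GC shift.

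*Srsf4*, *Srsf9* and *Srsf6* ran the other way. For *Srsf4* r was 0.81 over all embryos (adjusted permutation p = 3.5e-04; rho = 0.60, adjusted permutation p = 0.0227), 0.93 in *Upf2*-null blastocysts (adjusted exact permutation p = 0.00308) and 0.57 in control blastocysts (adjusted permutation p = 0.169). For *Srsf9* r was 0.79 over all embryos (adjusted permutation p = 6e-04), but rho was 0.43 (adjusted permutation p = 0.129), and in control blastocysts r was 0.49 and -0.0098 without the 2 farthest embryos. *Srsf6* had r of 0.75 over all embryos (adjusted permutation p = 8e-04; rho = 0.52, adjusted permutation p = 0.063), which was 0.50 without the 2 farthest embryos, and r of 0.93 in *Upf2*-null blastocysts and 0.42 in control blastocysts. The relations of these 3 genes were thus not established within control blastocysts. *Srsf2* had r of 0.65 over all embryos (adjusted permutation p = 0.00425; rho = 0.40, adjusted permutation p = 0.135), and 0.34 without the 2 farthest. Within genotypes its r was 0.91 in *Upf2*-null blastocysts (adjusted exact permutation p = 0.00308), 0.78 without the 2 farthest of these, and 0.34 in control blastocysts (adjusted permutation p = 0.392).

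For *Srsf1*, *Srsf5*, *Srsf10* and *Srsf11*, r was 0.10, 0.06, -0.42 and 0.38 over all embryos, with adjusted permutation p-values from 0.105 to 0.805. Within genotypes *Srsf11* had r of 0.89 in *Upf2*-null blastocysts (adjusted exact permutation p = 0.00409; rho = 0.81, adjusted exact permutation p = 0.0363), which was 0.57 without the 2 farthest, and -0.02 in control blastocysts. *Srsf10* had r of -0.26 in *Upf2*-null blastocysts and -0.57 in control blastocysts (adjusted permutation p = 0.169), where rho was -0.74 (adjusted permutation p = 0.0454). For *Srsf1* r was 0.40 in *Upf2*-null blastocysts and -0.42 in control blastocysts, and for *Srsf5* 0.25 and -0.16, none of them past the threshold. Whether r differs between the genotypes was not tested. With the GC shift as a covariate, added after the data were seen, again no SR gene was called.

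**Figure D4:**
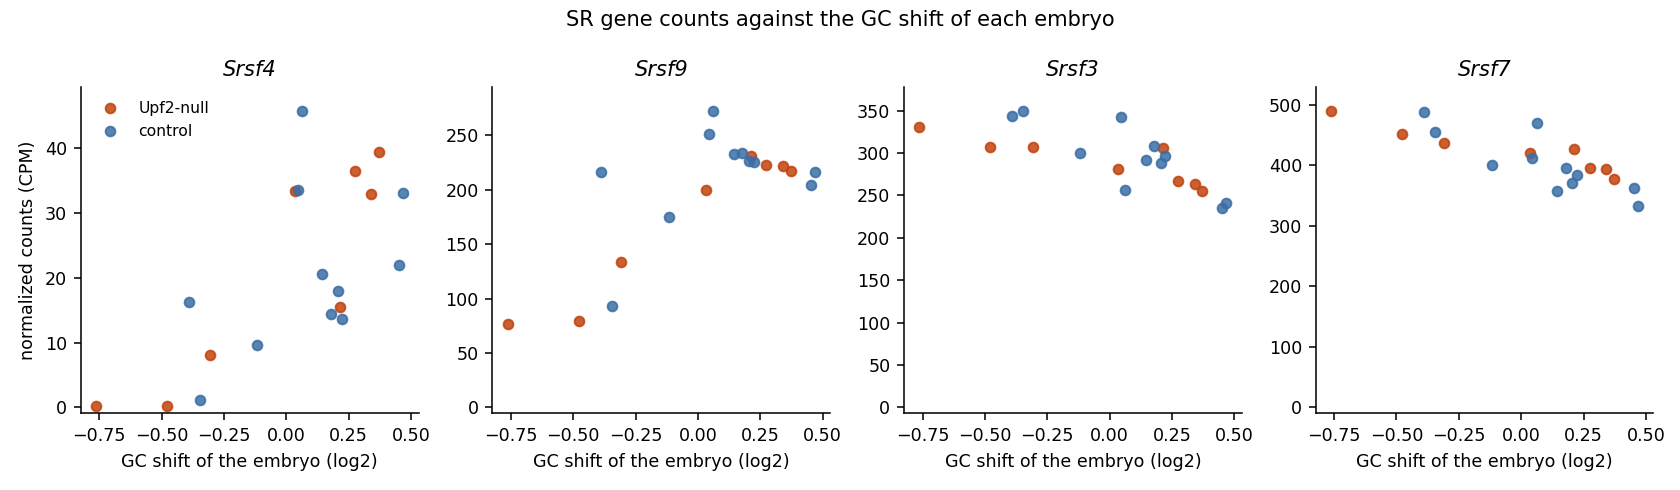
Normalized counts (CPM) of *Srsf4*, *Srsf9*, *Srsf3* and *Srsf7* against the GC shift of each embryo on the log2 scale, *Upf2*-null in orange and control in blue. *Srsf3* and *Srsf7* fall towards the right in both genotypes, and *Srsf4* and *Srsf9* are near their lowest in the embryos at the left, apart from control embryo 2.

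Other splicing proteins with arginine-serine tails were compared as a list of 24 genes outside the family. None passed the edgeR threshold, and the median log2 fold change was -0.0039. At an unadjusted p under 0.05 in edgeR 3 of the 24 were higher and none lower, against 5.15% and 7.38% of all genes tested. DESeq2 called 1 of the 24 higher and limma voom 2, against 0.595% and 0.514% of all genes. *Luc7l*, which encodes a factor associated with the U1 snRNP, ranked first by p, with 245.4 ± 38.6 CPM (SD, n = 8) in *Upf2*-null blastocysts, against 182.2 ± 30.6 CPM (SD, n = 11) in control blastocysts. Its log2 fold change was 0.43 ± 0.11 (SE; adjusted p = 0.158 from edgeR and 0.0686 from DESeq2), so that DESeq2 alone called it. *Tra2a*, an enhancer-binding SR-like protein, had 81.2 ± 21.8 CPM in *Upf2*-null blastocysts and 50.3 ± 19.2 CPM in control blastocysts, a log2 fold change of 0.69 ± 0.23 (SE; adjusted p = 0.260 from edgeR and 0.0669 from limma voom). All 8 *Upf2*-null blastocysts were above the control median of *Tra2a*, and the same held for *Rbm39* and *Tra2b*. The share of all genes tested with all 8 above was not computed. These counts, and that of *Clk4* below, are thus descriptions. *Rbm39*, a splicing coactivator related to U2AF, had a log2 fold change of 0.19 ± 0.09 (SE; adjusted p = 0.369 from edgeR and 0.0996 from limma voom). *Tra2b*, the relative of *Tra2a*, was at 206.6 CPM in *Upf2*-null blastocysts and 191.7 CPM in control blastocysts (adjusted p = 0.766, edgeR).

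The activity of SR proteins depends on their phosphorylation, by kinases of the SRPK family in the cytoplasm and the CLK family in the nucleus, and transportin 3 carries them into the nucleus. Of 9 genes in this list 8 were tested, all but *Srpk3*, and none passed the edgeR threshold. *Clk4* had the lowest p, with 134.1 ± 37.4 CPM (SD, n = 8) in *Upf2*-null blastocysts, against 91.6 ± 30.1 CPM (SD, n = 11) in control blastocysts, a log2 fold change of 0.55 ± 0.20 (SE; adjusted p = 0.262, edgeR), and all 8 *Upf2*-null blastocysts above the control median. *Clk3* and *Srpk1* came next, with log2 fold changes of -0.22 ± 0.13 and -0.13 ± 0.10 (SE; adjusted p = 0.578 and 0.721, edgeR). *Tnpo3*, the gene of transportin 3, was at 180.3 CPM in *Upf2*-null blastocysts and 184.8 CPM in control blastocysts (adjusted p = 0.973, edgeR).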

How the data were processed

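Single blastocysts were genotyped by the authors on their cDNA, amplified with a full-length SMARTer kit and made into Nextera XT libraries. Reads were aligned by the authors to GRCm38 with STAR 2.5.2a, duplicates were removed with SAMtools, and the deposited raw counts per gene came from featureCounts. The deposited exon positions are StringTie models merged over all embryos. A deposited table of scaled expression was not used. Columns of values not belonging to a sample numbered 0.

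Of 41388 identifiers, 40340 had a GENCODE M21 symbol. A gene entered the fit when any embryo had 10 counts of it, which left 17137. The main test was the quasi-likelihood test of edgeR 4.0.16 with TMM factors and robust fitting, adjusted by Benjamini-Hochberg with a threshold of 0.1. DESeq2 1.42.0 and limma 3.58.1 (voom with quality weights) were alternatives, under R 4.3.3. Figures, correlations (100000 permutations, or exact below 10 embryos, two-sided) and isoform reading used Python 3.11.15. Each library is its own animal. No litter or batch is given in the sources used here. Members and lists were chosen with earlier results of these data known. The text names all members and, of the lists of arginine-serine proteins and of kinases and import, each gene past the edgeR threshold and the 3 with the lowest p. Marker lists are given as sums. *Tra2b*, *Tnpo3*, *Elf5*, *Sox2* and *Alas2* were named after their values were seen, as were embryos described singly. The sequences shown were chosen after the models were read. The fits were tested on simulated counts, drawn independently for each gene, with no GC shift and with changes larger than those of the SR genes. That test does not cover differences as small as those of the SR genes.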

Additional observations from a re-analysis of the deposited data

How the results depend on the processing

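No SR gene was called under any of the 31 alternatives, and the lowest adjusted p of any member was 0.192, for *Srsf2*. Of 300 refitted log2 fold changes, 283 kept their direction and 17 changed it, in *Srsf3* and *Srsf4*. For *Srsf3* the value was 0.011 with limma voom, 0.0041 with total counts and 0.014 without control embryos 2 and 4. For *Srsf4* it was -0.80 with limma voom, -0.33 with the replicate block, -0.075 in the same 16 embryos unblocked and -0.30 with the GC shift as a covariate, and it ran from -0.19 to 0.19 with each embryo left out. The cause was not tested. *Srsf2* kept an unadjusted p under 0.05 in 29 of 30 refits, the exception being the block (p = 0.0963 from edgeR).

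The count of all genes called was 33, and it was 176 with DESeq2, 112 with limma voom, 11 at an adjusted p under 0.05, 122 with the GC shift as a covariate, 5 without *Upf2*-null embryos 4 and 7 and control embryo 6, and 14 to 43 with each embryo left out. With the replicate numbers 1 to 8 as a block it was 0, with 684 genes at an unadjusted p under 0.05 in edgeR, against 24 called in these 16 embryos without the block. The numbers are names: same-numbered embryos had correlations of their deviations from -0.29 to 0.16, and none was closest to its own number. The GC covariate, the 3 embryos left out, the unblocked fit of 16 embryos and the principal transcript were chosen after seeing the data. The 8 genes with a cassette exon that gives an early stop on insertion were 6 with the annotated transcripts of the merged set alone. They were 8 with assembled models alone, with any stop before the last junction or with the principal transcript. Depth limits *Srsf4* most, with 862 counts over all *Upf2*-null embryos and 1135 over all controls.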
